A study of Mus musculus with 4 samples.

Results

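The ETS transcription factors described here are 10 genes, Ets1, Ets2, Fli1, Erg, Elf1, Elf4, Gabpa, Etv6, Elk3 and Elk4, taken by symbol from a table of 24391 genes. All 10 symbols had a row. They were compared between Beko cells kept in γ-secretase inhibitor (GSI) and Beko cells from which the inhibitor had been washed out. Beko is a mouse leukemic pre-T-cell line in which Notch signaling is constitutively active, and the GSI, DAPT, blocks the cleavage that frees the intracellular domain of Notch. There were 2 RNA-Seq libraries of cells treated with GSI for 48 h (GSI) and 2 of cells treated for 48 h, washed, and returned to culture without inhibitor for 24 h (washout). The dose on the labels is 10 mg/ml, while the methods of the study state the same figure in μg/ml. Both groups were therefore exposed to GSI, the washed cells were also handled and cultured for longer, and the effect of that handling cannot be told apart from that of removing the inhibitor. Cells kept in solvent alone were not analysed here. The labels do not say whether the libraries of a group came from separate cultures, so the p-values measure the spread between these libraries, which may be technical.

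ETS factors share a winged helix-turn-helix DNA-binding domain, the ETS domain, that contacts a GGAA core, and members differ in the bases around the core, in their partners and in whether they activate or repress. Several of them act together with RUNX factors at enhancers of lymphoid genes. ETS1, FLI1 and ELF1 are well-known factors of developing T-cells, ERG is a factor of hematopoietic stem cells, GABPA works as a complex with GABPB subunits, ETV6 is a repressor, and ELK3 and ELK4 are ternary complex factors that bind DNA next to SRF and are phosphorylated by ERK kinases.

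In brief, 6 of the 9 ETS factors that could be tested were lower upon washout and 1 was higher, at an adjusted p-value under 0.05, which 25.4% and 27.0% of all genes tested also passed in these directions. Without GSI replicate 1 or GSI replicate 2, 3 factors were lower, and without either of these or washout replicate 1, 0 were higher. Elk3 fell the furthest, from 36.9 and 36.0 to 17.0 and 17.7 normalized counts (CPM). Ets1, Fli1, Elf1, Elf4 and Elk4 fell by 27.3% to 32.2%, and Gabpa rose by 38.0%. Ets2 and Etv6 did not pass the test, and Erg had no counts. CPM here are counts as a rate per library total, adjusted by a TMM normalization factor, and all changes are those of washout relative to GSI from edgeR's quasi-likelihood test, adjusted over all 12266 genes tested.

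The libraries held between 13716199 and 36364200 counted reads, and in both groups replicate 1 was the deeper library. A count of 3 corresponded to 0.0881 to 0.223 CPM, which covers counting error only. Correlations of log2 CPM were 0.990 and 0.988 within the groups and 0.935 to 0.947 between them, and replicates differed by more than sampling noise (chi-square of 18.1 and 29.2 per degree of freedom). The T lineage label was checked with 13 markers, which all had counts in every library, with 3 higher and 6 lower upon washout by the adjusted p-value. Their summed level was 5911 and 6383 CPM in GSI against 6080 and 5931 CPM upon washout, and Rag1, Lck, Thy1 and Tcf7 were among the most abundant. Genes listed as markers of other lineages moved with the groups. The 6 mast cell markers summed to 274.5 and 166.7 CPM in GSI against 45.7 and 30.5 CPM upon washout, all from Cpa3 and Kit, while Fcer1a, Ms4a2, Mcpt4 and Tpsb2 were at 0. The 6 myeloid markers went from 49.2 and 38.2 to 5.49 and 4.91 CPM, nearly all from Itgam, with Lyz2 and Elane at 0. The 6 endothelial markers went from 221.2 and 173.9 to 67.2 and 64.6 CPM, nearly all from Pecam1, with Kdr and Tie1 at 0. The 6 erythroid and megakaryocyte markers went from 13.6 and 11.2 to 5.52 and 4.76 CPM, with Hbb-b1, Hba-a1 and Pf4 at 0, and the 6 B lineage markers stayed under 1 CPM in sum. Their part in the changes of the ETS factors was not tested. In such bulk libraries, fewer cells with a transcript and less transcript per cell cannot be told apart.

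Sets of ETS genes lie next to each other in the genome. In mm9, the build of the deposited counts, Fli1 (chromosome 9, 32229793 to 32348974, minus strand) and Ets1 (chromosome 9, 32443806 to 32565405, plus strand) stand head to head with 94831 bases between them. Erg (chromosome 16, 95580776 to 95808200, minus strand) and Ets2 (chromosome 16, 95923682 to 95942658, plus strand) stand in the same arrangement 115481 bases apart. Gabpa is also on chromosome 16, from 84835170 to 84864024. The others are on separate chromosomes, with Elf1 on 14 (79881001 to 79982283), Elf4 on X (45764223 to 45816309), Etv6 on 6 (133985718 to 134220176), Elk3 on 10 (92710159 to 92773880) and Elk4 on 1 (133904184 to 133929189).

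Promoter windows of RefSeq, from 250 bases before to 50 bases after a transcription start in GRCm38.p6, were present for 8 of the 10 genes, with 14 windows in all. Ets1 and Fli1 had no entry. Each window was searched on both strands for CGGAAG, a core preferred by many ETS factors, for its longer form CCGGAAGT, and for TGGGAA, the letters of the RBPJ motif, whose last 4 letters are also the GGAA of the ETS core. CGGAAG was found in 3 of the 14 windows (21.4%) and in 16.9% of all 32851 windows. CCGGAAGT was found in 1 of 14 (7.14%) and in 3.89% of all. TGGGAA was found in 3 of 14 (21.4%) and in 25.6% of all. The matches are shown in 30 bases each because they are the places where the letters of ETS or RBPJ motifs occur in promoters of ETS genes. They are written 5′ to 3′ on the strand of the gene, with the matching letters in capitals, and a match on the other strand appears as its reverse complement. A match is a description of letters and not a binding site.
Elk4 (chr1:132007541-132007570, plus strand, first capital 68 bases before the start, CCGGAAGT): cggcccctcccCCGGAAGTgacgctcgcgc
Elk4, another start (chr1:132008200-132008229, plus strand, 133 bases before the start, CGGAAG): aagtcccttgggCGGAAGgtggcagcggtt
Gabpa (chr16:84835019-84835048, plus strand, 93 bases before the start, CGGAAG on the other strand): ggagggtaagtgCTTCCGggtccctcagct
Etv6 (chr6:134035625-134035654, plus strand, 63 bases before the start, TGGGAA): agagccgggtgcTGGGAAttcacgtcagtt
Elf4 (chrX:48463117-48463146, minus strand, 2 bases before the start, TGGGAA on the other strand): tgacttcactgcTTCCCAggaagaggcgcc
Erg (chr16:95459347-95459376, minus strand, 16 bases before the start, TGGGAA on the other strand): ggctgacttcatTTCCCAgacttagcacaa

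The window of Elk3, the gene with the largest change among the 10, held none of these strings, and neither did the windows of Ets2 and Elf1. The 100 bases before the start of Elk3 (chr10:93311160-93311259, minus strand) are shown for comparison with the others. Its window had a GC content of 71.3%, and the GGAA core alone does occur in the bases shown.
Elk3: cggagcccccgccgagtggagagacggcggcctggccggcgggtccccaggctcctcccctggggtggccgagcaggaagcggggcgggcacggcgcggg

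Levels of different genes were compared as CPM per kb of exon. Ets1 was the most abundant ETS factor in every library, with 174.1 and 177.9 CPM per kb in GSI and 125.1 and 120.5 CPM per kb upon washout. Ets2 was next, with 76.1 and 84.7 in GSI and 94.8 and 94.8 CPM per kb upon washout, so that the distance between them was smaller in the washout libraries. Elf1 held the next place at 49.0 and 45.4 in GSI and 34.0 and 34.7 CPM per kb upon washout, above Fli1 at 43.3 and 35.1 against 28.5 and 24.6 CPM per kb. Next in GSI was Elk4 (20.6 and 25.4 CPM per kb), which was above Elf4 (16.1 and 21.8) and Gabpa (19.2 and 18.0 CPM per kb) in each library, although its range overlapped that of Elf4. The order of Elf4 and Gabpa differed between the GSI libraries. Upon washout Gabpa stood at 28.1 and 23.4 CPM per kb, a range that overlapped that of Fli1 and lay above those of Elk4 (15.1 and 16.8) and Elf4 (11.5 and 14.3). Etv6 was at 14.7 and 15.7 in GSI and 16.2 and 16.5 CPM per kb upon washout. Elk3 was the lowest of the 9 detected factors in every library, with 8.12 and 7.91 against 3.73 and 3.89 CPM per kb.

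**Figure D1:**
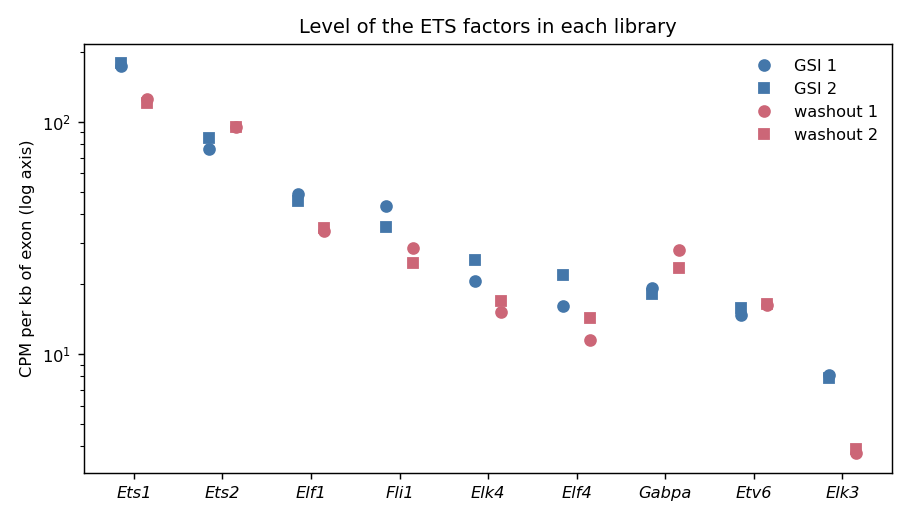
Level of each detected ETS factor in CPM per kb of exon (log axis), with 1 point per library, GSI in blue and washout in red, circles for replicate 1 and squares for replicate 2. Genes are ordered by their mean in GSI, and the washout points lie below the GSI points except for Ets2, Gabpa and Etv6, where they lie above.

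Erg had 0 counts in all 4 libraries. The limit of detection for counting error, set at 3 counts, was 0.0938 and 0.206 CPM in the GSI libraries and 0.0881 and 0.223 CPM upon washout. No gene overlaps Erg in the annotation used. A 0 in this table can also come from the counting, since Hmgcs1, an enzyme of cholesterol synthesis, is listed at 0 in every library as well.

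The comparison of washout with GSI asks how expression responds when Notch signaling is allowed to return. Calls past both thresholds needed a log2 fold change beyond 1 in either direction in addition to the adjusted p-value. By this rule 1 of the 9 ETS factors tested was lower and none was higher. Among all genes tested, 11.7% were lower and 7.74% were higher. With the adjusted p-value alone, 6 of 9 were lower and 1 was higher, where 25.4% and 27.0% of all genes tested passed in these directions. The other 2 did not pass. By level, Elk3 stood above 44.4% of all genes tested and the other factors above 77.7% to 99.4%. The shares over all genes thus come from genes that are mostly less abundant, and those of genes of like level were not computed. The libraries of the groups did not overlap for any of the 9, as was the case for 77.3% of all genes tested. The median log2 fold change of the 9 genes was -0.52, and that of all genes tested was -0.01. Scaling by the total count alone moved the median of all genes to -0.209 and the calls past both thresholds from 950 higher and 1437 lower to 586 higher and 1963 lower.

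Among the closely related Ets1, Ets2 and Fli1, the directions differed. Ets1, a factor needed for normal T-cell and NK cell development, had 1118 and 1142 CPM in GSI against 803.2 and 774.1 CPM upon washout. Both washout libraries lay clearly below both GSI libraries. Its log2 fold change was -0.52 (standard error, SE, of 0.115, adjusted p = 0.0109). Without GSI replicate 1 or 2 it was -0.54 and -0.49, with adjusted p-values of 0.0657 and 0.0809. Fli1, known from its activation by Friend leukemia virus and in Ewing sarcoma, had 134.7 and 109.0 CPM in GSI against 88.7 and 76.4 CPM upon washout. It was lower in both washout libraries, with a log2 fold change of -0.56 (SE 0.136, adjusted p = 0.0152), although the GSI libraries lay apart from each other. Without GSI replicate 1 the value for Fli1 was -0.40 (adjusted p = 0.0859 in the same test). Ets2, the nearest relative of Ets1 and like it a substrate of ERK, had 358.3 and 399.0 CPM in GSI against 446.6 and 446.4 CPM upon washout. Both washout libraries were above both GSI libraries, but the log2 fold change of 0.24 (SE 0.108, 95% confidence interval -0.02 to 0.50, adjusted p = 0.11) did not pass. Scaled by the total count it was 0.04, and with offsets for GC content and exon length it was 0.32 (adjusted p = 0.0186).

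The ratio of Ets1 to Ets2 within a library does not depend on the scaling between libraries. In counts per kb of exon, this ratio was 2.29 and 2.10 in GSI, and 1.32 and 1.27 upon washout. The ratio was lower in both washout libraries. In contrast, the ratio of Ets1 to Fli1 was 4.02 and 5.07 in GSI and 4.38 and 4.90 upon washout, and the groups overlapped. With 2 libraries against 2, an exact permutation test of such a ratio cannot give a two-sided p-value below 0.333.

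Of the coding genes that flank both loci, Psmg1 was the one that passed the test. Next to Ets1, Kirrel3 was low, with 0.500 and 0.822 CPM in GSI against 0.323 and 0.446 CPM upon washout (log2 fold change -0.77, adjusted p = 0.234). Next to Fli1, Kcnj1 had 3 counts in 1 GSI library and none in the others. On the far side of Ets2, Psmg1, a proteasome assembly chaperone, rose from 32.3 and 30.5 to 65.6 and 71.5 CPM (log2 fold change 1.12, adjusted p = 0.000548), and next to Erg, Kcnj15 had 2 counts in 1 GSI library and none in the others.

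The neighbors of the other members moved in both directions. Beside Elf4, Bcorl1, a corepressor, had 20.4 and 24.1 against 9.81 and 13.3 CPM (log2 fold change -0.96, adjusted p = 0.00728), and Aifm1, a mitochondrial flavoprotein, had 48.1 and 55.0 against 78.1 and 78.0 CPM (log2 fold change 0.60, adjusted p = 0.00424). Beside Etv6, Bcl2l14 fell from 21.0 and 21.0 to 8.17 and 10.4 CPM (log2 fold change -1.19, adjusted p = 0.00192), and Kap had no counts. Sugt1 beside Elf1 (0.19), Jam2 beside Gabpa (-0.79), Lta4h beside Elk3 (0.06) and Slc45a3 beside Elk4 (-0.43) did not pass, each value being a log2 fold change. App and Cdk18, on the far sides of Gabpa and Elk4, had at most 2 counts in a library.

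Both ELF factors were lower upon washout. Elf1, which binds many T-cell enhancers and promoters, had 212.2 and 196.6 CPM in GSI against 147.0 and 150.3 CPM upon washout. Replicates lay close together in each group, and the log2 fold change was -0.46 (SE 0.0946, adjusted p = 0.00828). Without GSI replicate 1 it was -0.41 (adjusted p = 0.067). Exons of Elf1 share 75 bases with Wbp4 on the other strand, which had a log2 fold change of 0.27. Elf4, known for its part in the quiescence of stem cells and T-cells, had 98.7 and 134.2 CPM in GSI against 70.8 and 87.7 CPM upon washout. Here replicate 2 was the higher library in both groups, and the gap between the groups was narrow. The log2 fold change of Elf4 was -0.56 (SE 0.176, adjusted p = 0.0381), the widest error among the 9 factors. The call was lost without GSI replicate 2 (-0.31, adjusted p = 0.197), without washout replicate 1 (-0.40, adjusted p = 0.0932) and with offsets for GC content and exon length (-0.39, adjusted p = 0.0654).

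Gabpa, the DNA-binding subunit of GABP, was the factor that rose. It had 109.5 and 102.6 CPM in GSI against 159.6 and 132.9 CPM upon washout. Both washout libraries were above both GSI libraries, with replicate 1 the higher. The log2 fold change was 0.46 (SE 0.117, adjusted p = 0.0173). Under total-count scaling it was 0.27 (adjusted p = 0.106), and without GSI replicate 1, GSI replicate 2 or washout replicate 1 it was 0.51, 0.43 and 0.33 with adjusted p-values of 0.0583, 0.0851 and 0.0524. Exons of Gabpa overlap those of Atp5j, a subunit of the mitochondrial ATP synthase on the other strand, over 397 bases. Atp5j rose as well, from 48.2 and 56.2 to 85.1 and 94.3 CPM (log2 fold change 0.78, adjusted p = 0.00239), and its part in the count of Gabpa was not tested. The ratio of Gabpa to Elf1 within a library, in counts per kb of exon, went from 0.393 and 0.397 in GSI to 0.826 and 0.673 upon washout.

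Etv6, a repressor needed by adult hematopoietic stem cells and a frequent fusion partner in leukemia, had 87.8 and 94.0 CPM in GSI against 96.8 and 98.5 CPM upon washout. The washout libraries lay just above the GSI libraries. The log2 fold change of 0.10 (SE 0.0905, 95% confidence interval -0.11 to 0.32, adjusted p = 0.367) did not pass, and it was -0.09 under total-count scaling.

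Both ternary complex factors among the 10 were lower. Elk3, also called Net, which represses SRF targets until it is phosphorylated, had 36.9 and 36.0 CPM in GSI against 17.0 and 17.7 CPM upon washout. The replicates were nearly equal in each group, and its level upon washout was 0.475 times that in GSI. The log2 fold change was -1.07 (SE 0.111, 95% confidence interval -1.34 to -0.81, adjusted p = 0.000743). The interval spans the threshold of -1, and in a test against a log2 fold change of 1 (glmTreat) Elk3 was not called. Exons of Elk3 overlap those of Cdk17 on the other strand over 316 bases, and Cdk17 was lower by less, with 137.5 and 127.9 against 98.2 and 83.4 CPM (log2 fold change -0.55). Elk4, also called SAP-1 and known for its part in the positive selection of thymocytes, had 112.8 and 139.0 CPM in GSI against 82.9 and 92.3 CPM upon washout. It was lower in both washout libraries, with a log2 fold change of -0.52 (SE 0.129, adjusted p = 0.0162). Without GSI replicate 2 the value for Elk4 was -0.35 (adjusted p = 0.102). Exons of Elk4 share 84 bases with Mfsd4 on the other strand, which had a log2 fold change of -0.47. The ratio of Elk4 to Elk3 per kb went from 2.53 and 3.21 in GSI to 4.05 and 4.33 upon washout.

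**Figure D2:**
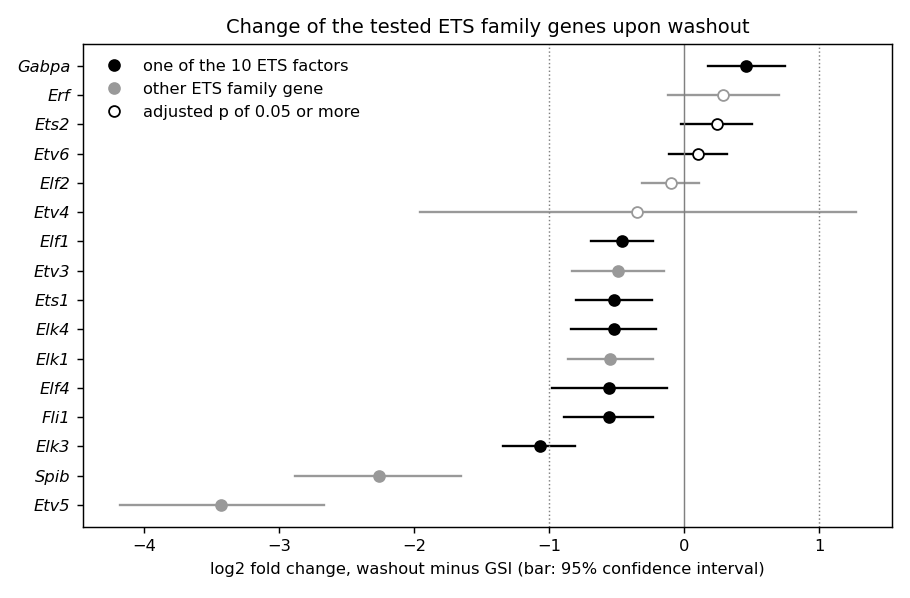
Log2 fold change of washout over GSI for the 16 ETS family genes tested, with 95% confidence intervals from edgeR, the 9 factors described here in black and other family genes in gray. Open points have an adjusted p-value of 0.05 or more, and the dotted lines mark log2 fold changes of 1 and -1, which only Elk3, Spib and Etv5 lie beyond.

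Of the 17 other genes of the ETS family, 16 had a row and 7 could be tested. By the adjusted p-value, 4 were lower and none was higher (at most 1 was higher in any other setting), and 2 were lower past both thresholds, beside 25.4% lower and 27.0% higher, and 11.7% lower past both thresholds, of all genes. Etv5, a factor of the PEA3 group, had 102.7 and 62.1 CPM in GSI against 9.11 and 5.73 upon washout, which gave a log2 fold change of -3.43 (SE 0.31, adjusted p = 0.000536). Spib, known from B-cells and plasmacytoid dendritic cells, fell from 6.03 and 6.99 to 1.35 and 1.34 CPM (log2 fold change -2.26, adjusted p = 0.000954). Elk1, the other ternary complex factor, fell from 24.0 and 24.9 to 17.7 and 15.6 CPM (log2 fold change -0.55, adjusted p = 0.0136), and the call was lost without GSI replicate 1 (adjusted p = 0.0573) or GSI replicate 2 (adjusted p = 0.0761). Exons of Elk1 share 76 bases with Uxt, so reads there could belong to either gene. Etv3, a repressor, had 88.2 and 99.8 against 59.3 and 75.4 CPM (log2 fold change -0.49, adjusted p = 0.028), or -0.22 with the GC and length offsets (adjusted p = 0.152), -0.38 without GSI replicate 2 (adjusted p = 0.13) and -0.31 without washout replicate 1 (adjusted p = 0.0839). Elf2, a relative of Elf1 and Elf4, had a log2 fold change of -0.10 (adjusted p = 0.385), Erf, a repressor, 0.29 (adjusted p = 0.197), and Etv4, with 6 to 10 counts per library, -0.35 (adjusted p = 0.685). For Erf the value was 0.58 with the GC and length offsets (adjusted p = 0.0128), 0.30 with the replicate block (adjusted p = 0.00525), 0.09 with the total count alone (adjusted p = 0.668) and 0.08 without GSI replicate 1 (adjusted p = 0.758). For Elf2 it was -0.30 with the total count alone (adjusted p = 0.0289). Spi1, the PU.1 factor of myeloid and early T-cell progenitors, had 2 and 1 counts in GSI and none upon washout, and Etv1, Etv2, Fev and Spic had no counts.

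Summed over the whole family, ETS transcripts came to 2674 and 2742 CPM in GSI against 2184 and 2166 CPM upon washout. Within a library, the share of each gene in the family sum per kb of exon does not depend on scaling. Ets1 made up 34.5% and 34.8% of it in GSI and 30.3% and 29.6% upon washout, and Ets2 went from 15.1% and 16.6% to 23.0% and 23.3%. Gabpa went from 3.81% and 3.53% to 6.80% and 5.73%, and Etv6 from 2.90% and 3.08% to 3.92% and 4.04%. Etv5 shrank from 4.95% and 2.96% to 0.538% and 0.343%, and Elk3 from 1.61% and 1.55% to 0.904% and 0.955%. The shares of Fli1, Elk4 and Elf4 overlapped between the groups. Shares are parts of a whole, so the share of a gene also grows where other genes fall. That of Elf2 went from 6.91% and 6.85% in GSI to 7.91% and 8.01% upon washout, with a log2 fold change of -0.10. Ets2 and Etv6 did not pass the test of their own change.

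**Figure D3:**
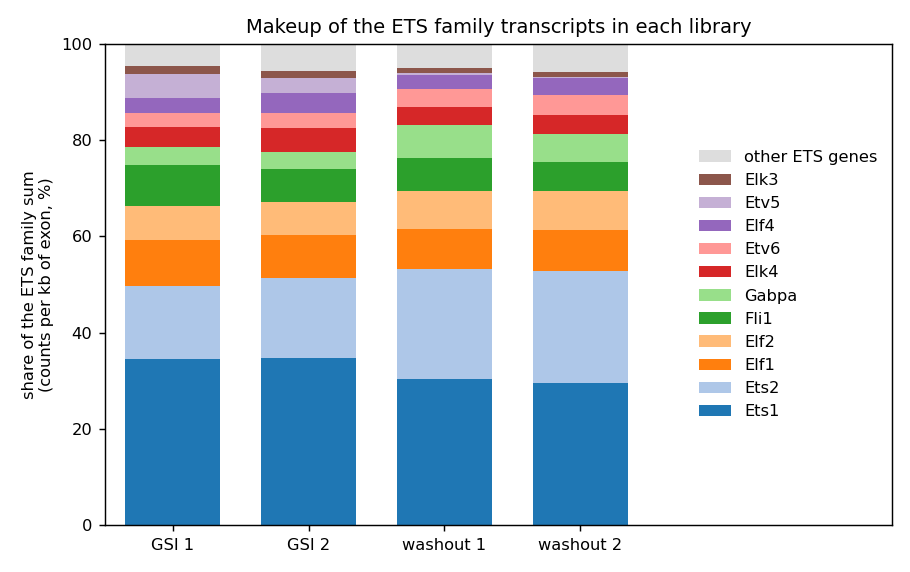
Makeup of the ETS family transcripts in each library, as the share of the family's sum of counts per kb of exon (%), with 1 stacked bar per library. The parts of Ets2 and Gabpa are larger and those of Ets1, Elk3 and Etv5 are smaller in both washout libraries.

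Of 15 partners and cofactors of ETS factors tested, 4 were higher and 5 lower by the adjusted p-value, with a median log2 fold change of -0.33. These counts are near the shares over all genes (27.0% higher, 25.4% lower). Under total-count scaling none was higher and 9 were lower. Past both thresholds was Runx3, which fell from 20.2 and 19.0 to 5.79 and 7.14 CPM (log2 fold change -1.62, adjusted p = 0.000786). Runx1, the partner of ETS1 at many T-cell enhancers, had a log2 fold change of -0.35 (adjusted p = 0.0178), and Cbfb, the shared subunit of RUNX factors, had the highest value of the list at 0.62 (adjusted p = 0.0253). The partners of GABPA were Gabpb2 at 0.43 (adjusted p = 0.0158) and Gabpb1 at 0.18 (adjusted p = 0.183), and Srf, the partner of the ternary complex factors, was at 0.34 (adjusted p = 0.033), or not higher by the test under total-count scaling. Of the corepressors and coactivators, Ep300 (-0.88) and Ncor1 (-0.33) were lower, each value being a log2 fold change. Of the stem cell factors that bind with FLI1 and ERG, Gata2 and Tal1 had at most 4 counts per library and Lmo2 had none, so that only Runx1 and Lyl1 were tested. Lyl1 fell from 1.28 and 1.64 to 0.499 and 0.670 CPM (log2 fold change -1.35, adjusted p = 0.0265), from 9 to 41 counts per library. Neither Lyl1 nor Runx1 was called without GSI replicate 1, GSI replicate 2 or washout replicate 2.

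The ERK cascade, which phosphorylates ETS1, ETS2 and the ternary complex factors, gave 3 higher and 2 lower of 10 genes tested, none past both thresholds, which is again near the 27.0% and 25.4% of all genes. Hras had the highest log2 fold change at 0.47 (adjusted p = 0.00767) and Braf the lowest at -0.58, with replicates too far apart to pass (adjusted p = 0.287). Mapk3, which encodes ERK1, was at -0.50 (adjusted p = 0.00806). Under total-count scaling none of the 10 was higher.

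Known targets of SRF with ternary complex factors were mostly lower. Of 11 genes, 7 were tested, 6 were lower and 1, Srf itself, was higher by the adjusted p-value, with a median log2 fold change of -1.39, beside 25.4% lower and 27.0% higher of all genes. Upon washout Egr1 had 35 and 5 counts, Egr2 12 and 5, and Fos 24 and 5. These genes passed the filter on low counts through the GSI libraries, where they are high, and the median is the value of Egr2. With at least 10 counts required in every library, 3 were lower. The call of Srf was lost without GSI replicate 1, GSI replicate 2 or washout replicate 1. Egr1, an immediate early factor, fell from 8.03 and 6.51 to 1.03 and 0.372 CPM (log2 fold change -3.21, adjusted p = 0.00138), and its relative Egr2 from 1.09 and 0.754 to 0.353 and 0.372 CPM (log2 fold change -1.39, adjusted p = 0.0338). Fos, with 13.5 and 3.56 against 0.705 and 0.372 CPM (log2 fold change -3.89, SE 0.724), and Junb, with 64.1 and 37.1 against 11.5 and 12.6 CPM (log2 fold change -2.09), were past both thresholds as well. GSI replicate 1 was far above GSI replicate 2 for both. Mcl1, a survival factor, went from 355.4 and 346.9 to 237.4 and 198.9 CPM (log2 fold change -0.69, adjusted p = 0.00431).

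Mitochondrial genes known as GABP targets were higher, with 6 of 8 past the adjusted p-value and none lower, beside 27.0% and 25.4% of all genes, and with a median log2 fold change of 0.71. Atp5b, a subunit of the ATP synthase, rose from 1096 and 1131 to 2319 and 2388 CPM (log2 fold change 1.08, adjusted p = 0.00113), and Tfam, the main packaging protein of mitochondrial DNA, from 54.8 and 59.2 to 120.9 and 111.1 CPM (log2 fold change 1.03, adjusted p = 0.000612). The lowest value was that of Cox4i1, at 0.26 (adjusted p = 0.0836). In any other setting 5 to 8 of these genes were higher. Lymphoid genes known as ETS targets had 1 higher and 1 lower of 6 tested, shares below those of all genes (27.0% and 25.4%), with a median of 0.05. Ptcra, the pre-T-cell receptor chain, had a log2 fold change of 2.37, and Il2rb, a chain of the interleukin 2 and 15 receptors, fell from 6.13 and 3.91 to 0.441 and 0.670 CPM (log2 fold change -3.27, adjusted p = 0.00123). Il2rb had 15 and 9 counts upon washout and passed the filter on low counts through the GSI libraries. With at least 10 counts required in every library, 0 of the lymphoid genes were lower. Lck, Il7r, Cd3e and Zap70 did not pass, with log2 fold changes from -0.13 to 0.22. These lists were drawn from textbook knowledge, but they were chosen with earlier results of these data known. Their counts are descriptions beside the median of -0.01 over all genes and not independent support.

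**Figure D4:**
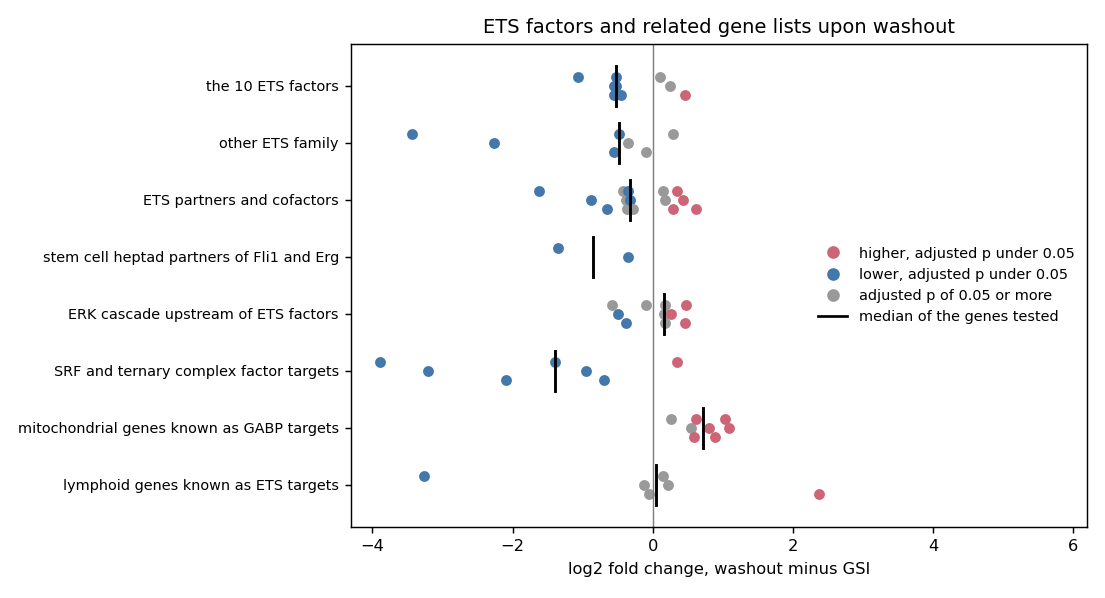
Log2 fold change of washout over GSI for the ETS factors and related gene lists, with 1 point per gene tested, red for higher and blue for lower at an adjusted p-value under 0.05, gray for the rest, and a black line at each median. The ETS factors lie mostly below 0 (median -0.52), SRF and ternary complex factor targets further below (median -1.39) and mitochondrial GABP targets above (median 0.71). Of the SRF targets, Egr1, Egr2 and Fos passed the filter on low counts through the GSI libraries, where they are high.

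**Figure D5:**
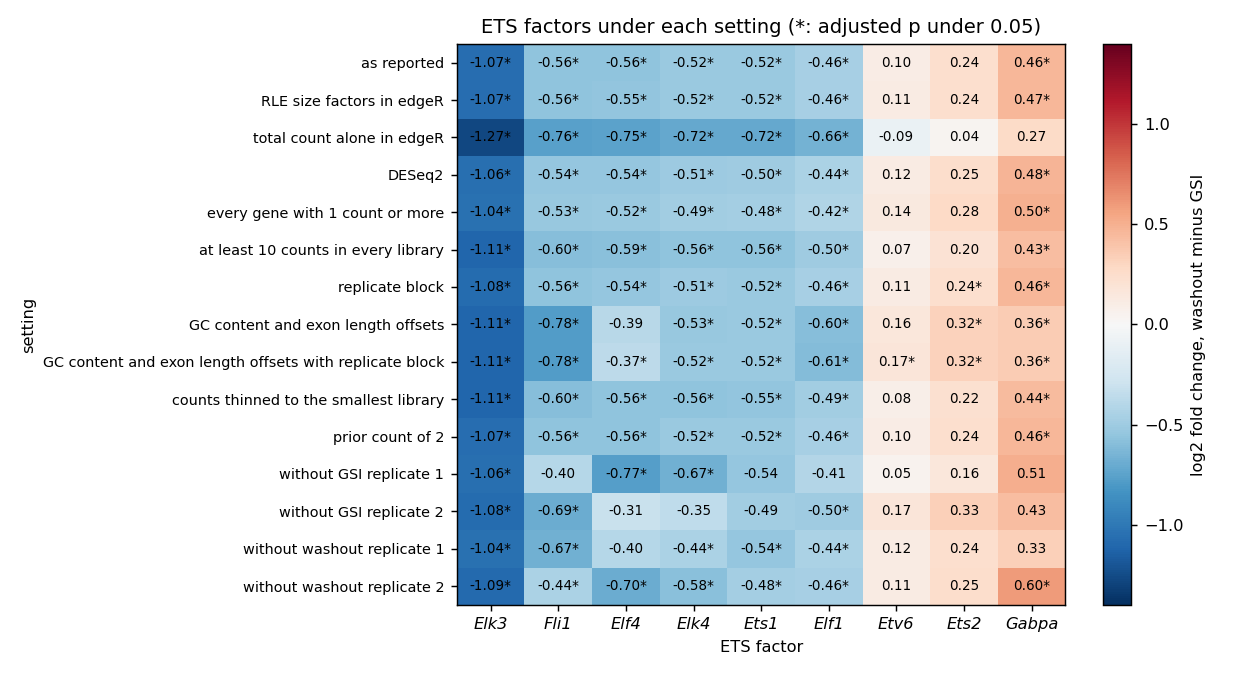
Log2 fold change of each tested ETS factor (columns) as reported and under 14 other settings (rows), with the color scale from blue (lower upon washout) to red (higher) and a star for an adjusted p-value under 0.05. Elk3 has a star in every row, Ets1, Fli1, Elf1, Elf4 and Elk4 are below 0 in every row, and Etv6 is the column whose sign changes, under total-count scaling.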

How the data were processed

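RNA of 4 Beko samples was sequenced with a stranded kit that depletes ribosomal RNA. The deposited tables hold raw read counts for each gene. The authors removed adaptors and low-quality bases, mapped to mm9 with HISAT2 2.2.1 (1 alignment per read, with a cap on intron length that is short for mouse genes), and counted with summarizeOverlaps. Reads across longer introns may be missing from the counts. The strand setting is not given in the sources used here, so genes with overlapping exons are uncertain. All 4 columns were used, and each was assigned by its library label.

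Counts were tested with edgeR 4.0.16 in R 4.3.3 (filterByExpr, TMM, estimateDisp, glmQLFTest, no covariates) with Benjamini-Hochberg adjustment over the 12266 genes tested. Standard errors were obtained from the log2 fold change and F, and confidence intervals are at 95%. Counts of this comparison were simulated with 200 genes that differed by a log2 fold change of 1.5, and 12143 genes were tested. At an adjusted p-value under 0.05, edgeR made 176 true and 25 false calls. The share of false calls among the calls was thus above the nominal 0.05. In the data 3315 genes were called higher and 3120 lower, and the ETS factors changed by less than 1.5. The shares of true and false calls in the simulation need not hold for them. Exon length, GC content and positions came from GENCODE vM1 on mm9, which matched 20641 of 24391 symbols, and promoter sequences from RefSeq (GRCm38.p6). The 10 genes and all lists were chosen with earlier results of these data known. Named were all 10 genes, their nearest coding neighbors, other tested ETS genes and, per list, genes past both thresholds and the extremes. Further partners named with a member (Runx1, Gabpb1, Gabpb2, Srf, Ncor1, Ep300, Mapk3, Mcl1 and the lymphoid genes) were chosen after their values were seen. Neighbors without a row in the table are left out.

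Alternatives were DESeq2 1.42.0, other scalings (RLE, total count), other filters, a replicate block, GC content and length offsets (loess) over 10962 genes with and without that block, thinning to the smallest library, glmTreat, a prior count of 2, and leaving out each library, where the lone library is assumed to vary like the others.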

Additional observations from a re-analysis of the deposited data

How the results depend on the processing

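Elk3 was lower past both thresholds in every setting except glmTreat, which called 0 of the ETS factors, with log2 fold changes from -1.27 to -1.04 over 14 other settings. Ets1, Fli1, Elf1, Elf4 and Elk4 kept their direction in all of them, and were called in 12, 13, 13, 11 and 13. Gabpa was called in 10 and Ets2 in 3. For 1 of these settings, the prior count of 2, the adjusted p-values are those of the reported fit, so its calls could not differ. Etv6 reversed to -0.09 with the total count alone (adjusted p = 0.401 in edgeR). The count of ETS factors that were higher, 1 as reported, was 0 with the total count alone, 2 with the replicate block, 2 with the GC content and length offsets and 3 with both (Ets2 was added in each of these, and Etv6 in the last). With 1 library left out it was 0 to 1, and the count of lower factors, 6 as reported, was 3 to 6. Of all genes, the total count alone called 586 higher past both thresholds (23% of those called, against 39.8%), and glmTreat called 308 higher and 501 lower. With 1 library left out, 2202 to 3334 genes were higher and 2028 to 2815 lower by the adjusted p-value, the lowest counts being those without GSI replicate 1. The cause of these changes was not tested, but fewer libraries enter these last fits.

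The replicate numbers name the libraries, and the labels do not say whether equal numbers share a culture or day. The fit reported here does not pair them. Deviations of replicate 1 from 2 correlated at 0.50 across genes between the groups, and replicate 1 was the deeper library in both. With the replicate block, 4243 genes were higher and 4216 lower by the adjusted p-value, against 3315 and 3120.

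For the related lists, the number of genes called higher or lower moved by over 1.5 times in 41 of 182 list counts. Over the other settings, partners and cofactors had 0 to 5 higher and 3 to 9 lower, ERK cascade genes 0 to 5 higher and 0 to 4 lower, SRF targets 0 to 1 higher and 3 to 7 lower, lymphoid genes 1 to 3 higher and 0 to 2 lower, stem cell factors 0 to 2 lower, and other ETS genes 0 to 1 higher and 2 to 5 lower. Etv4, Spi1, Gata2 and Tal1 had few counts and Erg and Lmo2 none, so that changes in them were not detectable at this depth.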
